A study of Mus musculus with 16 samples.

Results

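The response of Akt-inhibited Th2 cells to 6 h of stimulation through CD3 and CD28 was read from 4 of the 16 arrays of the series: 2 arrays of D10 cells taken 6 h after stimulation and 2 arrays of D10 cells taken at 0 h, all of which had spent 1 h in Akti1/2 at 10 µM beforehand. The D10 line consists of mouse Th2 cells, derives from 1 T cell clone and grows quickly, and its culture medium contained IL-2. Akti1/2 is an allosteric inhibitor of the kinases Akt1 and Akt2, and the stimulus was a mixture of biotinylated antibodies to CD3 and CD28, crosslinked with streptavidin. The cells at 0 h carried the inhibitor as well, but inhibited cells left unstimulated until 6 h were not analysed here, so that the stimulus and the longer time since the inhibitor was added cannot be told apart. The same comparison in control cells, 2 arrays at 6 h against 2 at 0 h without Akti1/2, served to show where the inhibited response differed, and the inhibited cells at 2 and 12 h placed it in time. The study's methods describe the control cells as untreated, while its results name a solvent. Neither the labels nor the methods say whether the duplicates were separate cultures, so p-values measure the spread between these arrays, which may be technical.

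Engagement of the T cell receptor together with CD28 activates several pathways at the same time. One branch runs through a scaffold of adaptor proteins to the IκB kinases, which release NF-κB dimers from their inhibitors. Another runs through PI3K to Akt, which restrains the FOXO transcription factors and, through mTORC1, favours translation, sterol synthesis, nucleotide synthesis and glucose use. Th2 cells answer such stimulation with IL-4, IL-5, IL-13, IL-10 and a set of chemokines. Amino acid shortage and protein folding stress raise the transcription factor ATF4, whose targets import amino acids, make them and charge tRNAs.

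Of 18138 genes on the array, the 7395 that exceeded the negative controls on 2 or more of the 16 arrays entered 1 limma model over all 8 groups, and genes with a Benjamini-Hochberg adjusted p under 0.05 were called. Levels below are normalized log2 intensities, and a level of 1 gene was not set against that of another gene, since probes differ in brightness. Raw median intensities were 137.2 and 134.8 at 0 h and 121.8 and 143.2 at 6 h, and 6463 to 6646 genes lay above background on each of the 4 arrays. The 2 arrays at 0 h were close, with a median absolute log2 difference of 0.128 and 20 genes over 2-fold apart. The 2 arrays at 6 h stood farther apart than the replicates of any other group, with a median absolute difference of 0.212 and 83 genes over 2-fold apart, against 0.124 to 0.163 and 11 to 56 genes in the other 7 groups. Across genes, replicate 1 minus replicate 2 at 6 h had a correlation of 0.39 with the change from 2 to 12 h in inhibited cells, while the same correlation for the other 5 groups that this time difference does not use lay between -0.19 and 0.19. Genes are not independent replicates, and the part that this gap plays in the results was not tested beyond leaving out each array. The precision is limited by the number of arrays.

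The labelled cell type was borne out by its markers. Cd3e, Cd3d, Cd3g, Gata3, Il4, Il5 and Il13 were above background on all 16 arrays and Cd4 on 13 of them, and only Thy1 of the 9 T cell and Th2 markers was on none. The markers of CD8 T cells, Th1 and regulatory T cells, NK cells and fibroblasts on the array (Cd8a, Tbx21, Ifng, Foxp3, Ncr1 and Col1a1 among them) were above background on 0 arrays. Of 4 B cell markers Ms4a1 passed on 1 array, and of 11 myeloid markers Cd68, which T cells can also express, passed on 15. Hba-a1, the alpha globin gene, was above background on all 16 arrays while the beta globin gene Hbb-b1 was on none, and the summed raw intensity of both fell from 1988.8 and 1630.8 at 0 h to 622.4 and 708.1 at 6 h.

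With Akti1/2 present, 2462 genes differed between 6 and 0 h, which is 33.3% of those tested: 1140 rose (15.4%) and 1322 fell (17.9%). Scaling the arrays to the same mean in place of quantile normalization gave 1262 rises and 1085 falls, so that rises outnumbered falls. The median change over all genes was -0.02 on the log2 scale. At least 2-fold changes were fewer, with 277 rises and 205 falls. Chemokine, cytokine and NF-κB pathway genes led the rises, and a gene list of the amino acid and stress response rose almost as a whole. The lists of glycolysis, of MYC network and MYC-linked metabolic genes and of the cell cycle had the largest shares of falls. Each of the 2 chips carried 1 array of each group. In 62.6% of all tested genes, called or not, the 2 arrays at 6 h did not overlap the 2 at 0 h. This held for all 2462 called genes, so that it adds nothing to a call. At an unadjusted p under 0.05 the number was 3167. In an RNA extract of whole cultures, fewer cells of a kind and less RNA per cell cannot be told apart.

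**Figure D1:**
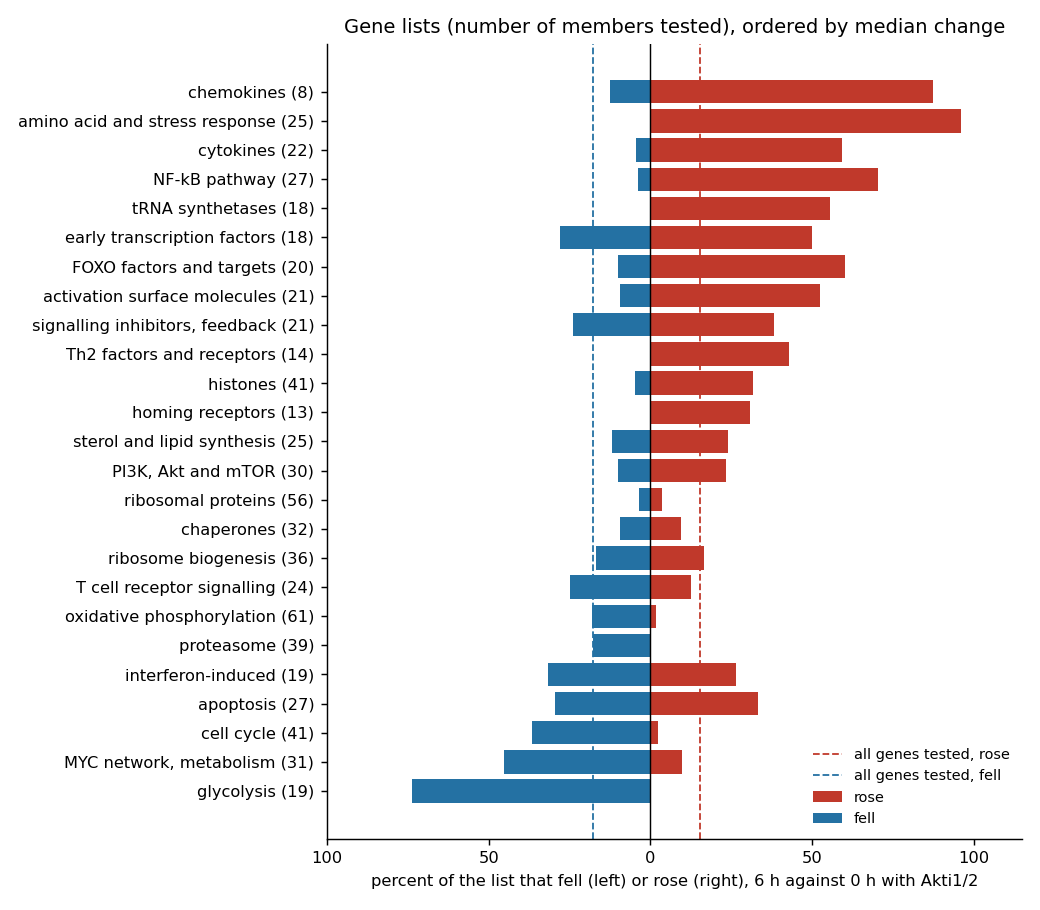
Percent of each gene list that rose (right, red) or fell (left, blue) from 0 to 6 h with Akti1/2, with the number of members tested in parentheses and the lists ordered by median change. The dashed lines mark the same percentages over all 7395 genes tested, 15.4% and 17.9%; the amino acid and stress response list reached 96.0% rises and the glycolysis list 73.7% falls.

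Chemokine genes were among the largest rises. Ccl1, the ligand of the Th2-associated receptor CCR8, stood at 6.51 and 6.52 on the 0 h arrays and at 11.09 and 11.10 on the 6 h arrays. That is a 23.9-fold rise (log2 4.58 ± 0.18 SE, adjusted p = 8.24e-09), and the groups lay far apart. Without Akti1/2 the log2 change of Ccl1 was larger, at 6.56, and the log2 difference in response of -1.98 ± 0.25 passed the test (adjusted p = 0.000357). Ccl3, a chemokine that draws T cells and monocytes, went from 7.71 and 7.70 to 12.01 and 11.97, a 19.5-fold rise. Its log2 change of 4.28 with the inhibitor was close to the 4.37 without, and the 95% interval of the difference ran from -0.47 to 0.29. Its neighbour Ccl4 rose 7.45-fold with Akti1/2, and here the log2 difference of -0.998 passed the test. Cxcl2, a neutrophil attractant, was at background on both 0 h arrays (4.58 and 4.72) and at 8.95 and 9.14 at 6 h, an at least 10.5-fold rise (adjusted p = 6.88e-08). A bound of this kind sets the mean at 6 h against the lowest signal above background on each 0 h array. Of 8 chemokines tested 7 rose (87.5%, against 15.4% of all genes) and 1, Ccl17, fell, with a list median of 1.81 against -0.02 for all genes. Xcl1, 1 of the 7, was at background on all 4 arrays and entered the test through other groups. The fall of Ccl17 did not pass without Akti-treated 6 h replicate 1, 6 h replicate 2 or 0 h replicate 1.

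Cytokine genes rose as well, and most of them rose less than without the inhibitor. Of 22 tested, 13 rose with Akti1/2 (59.1%, against 15.4% of all genes), 1 (Mif) fell and 8 did not pass. The list median was 1.11, or 0.54 without background correction. The fall of Mif did not pass without Akti-treated 6 h replicate 1, 6 h replicate 2 or 0 h replicate 1. In control cells 18 rose and the median was 2.00. The difference in response was called for 1445 genes over the whole array (19.5%, with 762 or 10.3% higher and 683 or 9.24% lower with Akti1/2), and among the 22 cytokines it was lower for 15 and higher for 2. The 15 include Lta and Il24, which were at background on all 4 arrays with Akti1/2 and entered the test through other groups. Where a gene was at background on both arrays of a group, its difference is one of normalized values with no measured level in that group, and of the genes whose differences are given this holds for Arl11, Atf3, Bcl3, Col4a1, Cxcl2, Gadd45b, Il3, Pik3ip1, Rel and Slc1a4. Il3, a growth factor of mast cells and basophils, lay at background at 0 h (4.64 and 4.77) and at 10.01 and 9.74 at 6 h, an at least 18.6-fold rise. Il10, the anti-inflammatory cytokine of Th2 cells, went from 6.29 and 6.60 to 10.32 and 10.19, a 14.1-fold rise. Csf2, which encodes GM-CSF, rose from 5.89 and 6.15 to 9.51 and 9.38, or 10.7-fold. All 3 rose by less than in control cells, with log2 differences of -2.03 for Il3, -1.87 for Il10 and -1.72 for Csf2.

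The Th2 cytokines themselves behaved unequally. Il4 went from 10.44 and 10.24 to 11.97 and 11.96, a 3.08-fold rise (log2 1.62 ± 0.14 SE, adjusted p = 4.15e-06). Its log2 change without the inhibitor was 1.58, and the 95% interval of the difference, -0.38 to 0.47, was narrow. Il5, the eosinophil growth factor, rose from 8.35 and 8.39 to 10.85 and 10.54, or 4.99-fold, against a 20.8-fold rise in control cells. Il13, which acts on epithelium and smooth muscle, rose from 5.80 and 5.93 to 7.32 and 8.22, and its 6 h arrays were the farthest apart of the Th2 cytokines. The change of Il13 was 3.75-fold with Akti1/2 (adjusted p = 0.00509), and it no longer passed without Akti-treated 6 h replicate 2 (log2 1.46, adjusted p = 0.0559). The log2 differences in response of Il5 and Il13, -2.06 and -2.81, passed the test.

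Tnf, the tumour necrosis factor gene, rose from 6.08 and 6.58 to 7.78 and 7.24, which is 2.27-fold with Akti1/2 against 10.3-fold in control cells. Its relatives Ltb and Tnfsf14 rose 3.53-fold and 2.74-fold, and Tnfsf14 was above background on 1 of the 2 arrays at 0 h. Areg, an epidermal growth factor family ligand, rose 2.97-fold. The log2 differences of these genes were -2.18 for Tnf, -0.95 for Ltb, -2.62 for Tnfsf14 and -1.32 for Areg. Il16, which binds CD4, went the other way: it rose 3.60-fold with the inhibitor, from 6.87 and 6.55 to 8.29 and 8.83, its log2 change without the inhibitor was -0.18, and the log2 difference was 2.03. Osm did not pass the test with Akti1/2 (log2 0.38, adjusted p = 0.0677), though it passed without background correction (adjusted p = 0.0349) and over the genes above background on all 16 arrays (adjusted p = 0.0482).

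**Figure D2:**
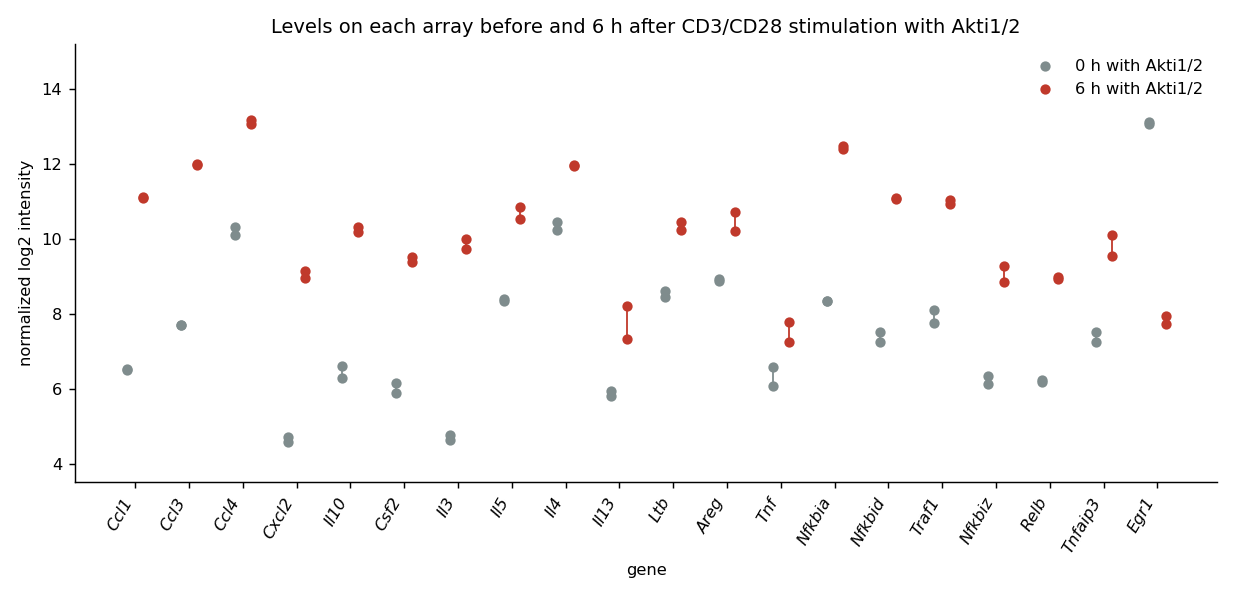
Normalized log2 intensity of chemokine, cytokine and NF-κB pathway genes and Egr1 on each array at 0 h (grey) and 6 h (red) with Akti1/2; points are arrays and the line joins the 2 arrays of a group. Every gene plotted separated its 0 h arrays from its 6 h arrays, as did each of the 2462 called genes and 62.6% of all genes tested. Egr1 had the lower values at 6 h and all others the higher, and Il13 had the widest gap between its 6 h arrays.

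Genes of the NF-κB pathway rose together with the inhibitor present, in 70.4% of the list against 15.4% of all genes. Of 27 tested 19 rose, 1 fell (Traf6, which did not pass without Akti-treated 6 h or 0 h replicate 2) and 7 did not pass, and the list median was 0.80, or 0.47 without background correction. Nfkbia and Nfkbid had the largest rises of the list, followed by Traf1, Nfkbiz, Relb and Tnfaip3. The inhibitor genes Nfkbie and Nfkbib rose by 1.43 and 0.55 on the log2 scale. Nfkbia, which encodes IκBα, went from 8.33 and 8.34 to 12.49 and 12.39, a 17.2-fold rise (log2 4.104 ± 0.17 SE, adjusted p = 9.45e-09). Nfkbid and Nfkbiz, nuclear relatives of the IκB proteins, rose 13.0-fold and 7.11-fold. Tnfaip3, the ubiquitin-editing enzyme A20, rose from 7.51 and 7.24 to 9.54 and 10.10, or 5.44-fold. Of the subunits, Relb rose 6.75-fold, Nfkb1 2.54-fold and Rela 1.74-fold, Nfkb2 rose 5.24-fold from a level that was above background on 1 of the 2 arrays at 0 h, and Rel rose at least 2.50-fold from background. Traf1, an adaptor of tumour necrosis factor receptors, rose 8.34-fold.

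Several of the strongest members of this pathway changed by similar amounts in both conditions. The log2 changes with and without Akti1/2 were 4.104 and 4.37 for Nfkbia, 2.76 and 2.75 for Relb and 2.44 and 2.49 for Tnfaip3. The 95% intervals of these differences ran from -0.78 to 0.25 for Nfkbia, from -0.48 to 0.50 for Relb and from -0.69 to 0.60 for Tnfaip3. Rel was at background at 0 h in both conditions, and its rise was at least 2.50-fold with Akti1/2 and at least 2.25-fold without. Over the list, the difference was called lower for 2 genes and higher for 2, and its median was -0.04. Bcl3, an IκB relative that acts on p50 and p52 dimers, was among the exceptions: it rose 3.39-fold, from a level above background on 1 array at 0 h, against at least 9.09-fold from background without the inhibitor, with a log2 difference of -1.68. In control cells 14 of the 27 rose and 0 fell, where 12.1% of all genes rose.

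Promoter sequences were set beside these responses where a textbook binding site lay near the start. The windows came from RefSeq on build GRCm38.p6 and ran from 250 bases before the start of the gene to 50 after it, 300 bases in all. A form of the NF-κB site (3 Gs, any 2 bases, 3 Ts and 2 Cs) was searched on both strands and was found in 6 of the 15 NF-κB list genes that rose and had a window (Nfkb2, Nfkbia, Rel, Tnfaip3, Traf2 and Traf3), or 40%, against 1.89% of all 27025 genes with a window. The 3 windows printed next belong to an inhibitor, a brake and a subunit of the pathway, Nfkbia at chr12:55492598-55492897 (minus strand), Tnfaip3 at chr10:19015361-19015660 (minus strand) and Rel at chr11:23770920-23771219 (minus strand), each 5′ to 3′ along the gene with the match in capitals. The match began 29 bases before the start in Nfkbia, 12 in Tnfaip3 and 91 in Rel. A match is a description of letters, and the motifs were chosen with the results known.
Nfkbia: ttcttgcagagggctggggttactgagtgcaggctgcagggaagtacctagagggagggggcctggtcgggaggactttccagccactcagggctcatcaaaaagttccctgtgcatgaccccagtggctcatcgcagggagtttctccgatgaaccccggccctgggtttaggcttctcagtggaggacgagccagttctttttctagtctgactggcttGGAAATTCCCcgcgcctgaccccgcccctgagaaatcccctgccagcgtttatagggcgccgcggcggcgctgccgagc
Tnfaip3: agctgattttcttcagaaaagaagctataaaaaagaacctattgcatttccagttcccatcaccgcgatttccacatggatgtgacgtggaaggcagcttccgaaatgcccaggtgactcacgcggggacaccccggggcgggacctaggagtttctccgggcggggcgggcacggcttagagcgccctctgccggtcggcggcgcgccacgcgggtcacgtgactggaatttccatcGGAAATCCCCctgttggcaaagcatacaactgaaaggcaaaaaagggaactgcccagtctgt
Rel: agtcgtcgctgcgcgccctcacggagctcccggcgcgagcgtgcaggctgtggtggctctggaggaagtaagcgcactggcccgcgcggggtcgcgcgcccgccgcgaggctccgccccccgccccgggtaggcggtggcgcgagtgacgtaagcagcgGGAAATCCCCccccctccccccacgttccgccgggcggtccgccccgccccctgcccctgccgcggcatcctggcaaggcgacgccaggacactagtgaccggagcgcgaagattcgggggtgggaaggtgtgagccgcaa

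Early transcription factors were split, with 50.0% rises and 27.8% falls, against 15.4% and 17.9% of all genes. Of 18 tested 9 rose and 5 fell, or 3 without Akti-treated 0 h replicate 2. Batf and Irf4, which act as a pair in activated T cells, rose 6.39-fold and 5.67-fold. Atf3, a stress-induced member of the ATF family, rose at least 2.08-fold from background, it was at background in control cells at 0 and 6 h, and the log2 difference was 1.54. Egr1, an immediate early gene, had the largest fall of all genes: it stood at 13.12 and 13.06 at 0 h and at 7.74 and 7.95 at 6 h, 37.8-fold lower (log2 -5.24 ± 0.29 SE, adjusted p = 9.7e-08). It fell in control cells as well, by 4.72 on the log2 scale, and the 95% interval of the log2 difference was -1.40 to 0.35. Ier3, an early gene that protects from cell death, rose 2.93-fold, and the log2 difference of -1.87 passed the test.

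Of 21 feedback genes of cytokine and kinase signalling 8 rose (38.1%, against 15.4% of all genes) and 5 fell (23.8%, against 17.9%). The falls numbered 3, 3 and 2 without Akti-treated 6 h replicate 1, 0 h replicate 1 and 0 h replicate 2. Gadd45b, a stress-kinase regulator that NF-κB induces, rose 19.5-fold from a level above background on 1 of the 2 arrays at 0 h. Its log2 difference of -1.14 passed with all arrays, and it did not pass without control 0 h replicate 1 (adjusted p = 0.0671), Akti-treated 0 h replicate 1 (0.0804) or control 6 h replicate 2 (0.0636). Its relative Gadd45g moved the other way. It went from 8.53 and 8.47 to 8.00 and 7.68, 1.58-fold lower, whereas it rose 4.76-fold in control cells, and the log2 difference was -2.91 ± 0.19 (adjusted p = 3.215e-06). Gadd45a was not above background on enough arrays to be tested, and neither was Klf2. Rgs16, a brake on G protein signalling, rose 4.06-fold and Socs3, a brake on cytokine receptors, at least 3.21-fold from background. For both, the difference in response was called lower with Akti1/2. Dusp1, a MAP kinase phosphatase, rose 4.001-fold with the inhibitor, against a 1.34-fold change without.

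The amino acid and stress response list had the largest share of members called in 1 direction. Of 25 members tested 24 rose (96.0%, against 15.4% of all genes) and 0 fell, and only Slc1a5 did not pass (log2 -0.32). The list median was 1.41, against 0.27 in control cells, where 9 rose and 2 fell. The difference in response was higher with Akti1/2 for 21 members and lower for 0. Trib3, a pseudokinase that ATF4 and CHOP induce and that has been described as a binding partner of Akt, went from 6.82 and 6.94 to 10.41 and 10.26. That was a 10.96-fold rise (log2 3.45 ± 0.13 SE, adjusted p = 7.37e-09), against a log2 change of 0.14 in control cells and a log2 difference of 3.32. Ddit3, which encodes CHOP, rose 5.20-fold, from 8.29 and 8.25 to 10.66 and 10.63, with a log2 difference of 2.11. The transcription factors Atf4 and Cebpb rose 2.27-fold and 4.21-fold, and the log2 difference of Cebpb was 1.72.

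The enzymes and transporters of the list followed. Slc1a4, a transporter of neutral amino acids, was at background at 0 h (5.05 and 4.85) and at 8.04 and 8.37 at 6 h, an at least 5.86-fold rise with a log2 difference of 2.47. Asns, the asparagine synthetase, rose 2.65-fold, from 10.43 and 10.29 to 11.74 and 11.80, with a log2 difference of 1.23. Gpt2, a mitochondrial alanine transaminase, rose 4.62-fold and fell without the inhibitor, with a log2 difference of 2.66. Chac1, which degrades glutathione, rose 3.30-fold with a log2 difference of 1.11, and Herpud1, a membrane protein of the endoplasmic reticulum, rose 4.53-fold with a log2 difference of 1.29. Ddit4, a brake on mTORC1, rose 2.65-fold, and here the log2 changes of 1.41 and 1.20 with and without Akti1/2 differed by an amount whose 95% interval was -0.33 to 0.75. Xbp1, a transcription factor of the unfolded protein response listed with the chaperones, rose 2.86-fold, while that list of 32 had 3 rises and 3 falls (18.8% called, against 33.3% of all genes). These became 5 rises without Akti-treated 6 h replicate 1, and 1 and 0 falls without 6 h replicate 2 and 0 h replicate 1.

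Before the stimulus, the inhibitor alone had changed few genes. Between inhibited and control cells at 0 h, 4 genes were called (0.0541%), 3 of them higher (0.0406%) and 1 lower (0.0135%) with Akti1/2, and 383 had an unadjusted p under 0.05. On the log2 scale Ddit3 and Chac1 were higher with Akti1/2, by 1.07 and 1.45, and so was Rgs1, by 2.38, while Dusp2 was lower (-1.08). Ddit3 and Chac1 thus started the response from a raised level, and Trib3, Asns and Slc1a4 from levels whose differences at 0 h (0.38, -0.01 and -0.07) did not pass.

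More charging enzymes for tRNA rose than fell. Of 18 cytoplasmic aminoacyl-tRNA synthetases 10 rose (55.6%, against 15.4% of all genes) and 0 fell. The median was 0.65 against 0.09 in control cells, where 2 rose. The difference was higher for 8 and lower for 0. Nars rose 2.74-fold, Aars 2.65-fold, from 11.04 and 11.02 to 12.59 and 12.29, Eprs 2.60-fold and Lars 2.58-fold.

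**Figure D3:**
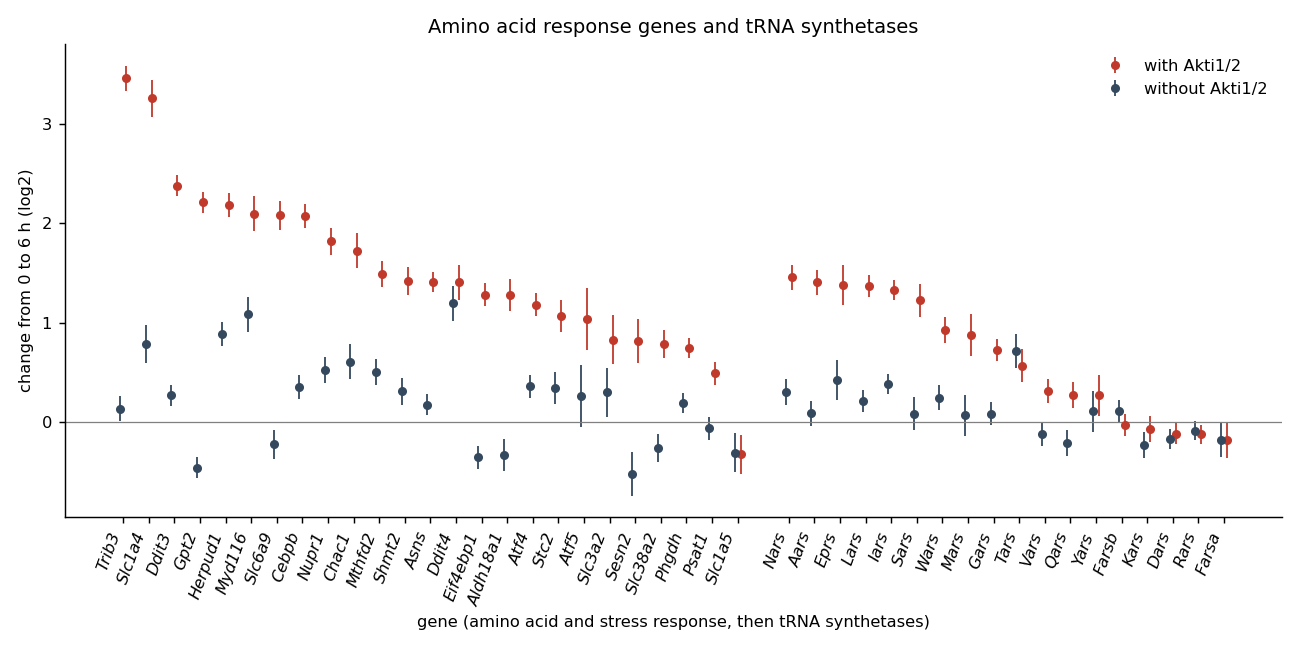
Change from 0 to 6 h (log2, points) with its standard error (bars) for the amino acid and stress response genes (left) and the tRNA synthetases (right), with Akti1/2 in red and without in dark blue. Trib3 at 3.45 against 0.14 had the widest gap, and Ddit4 at 1.41 against 1.20 a narrow one.

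The motif TGATGNAA, a form of the C/EBP-ATF response element, was searched on both strands of the same windows. It was found in 6 of the 23 genes of the amino acid and stress response list that rose and had a window (Asns, Chac1, Herpud1, Nupr1, Slc1a4 and Trib3), or 26.1%, and in 4 of 7 tRNA synthetases that rose and had a window (Aars, Gars, Iars and Tars), against 4.51% of all genes with a window. The FOXO motif GTAAACA was found in 3 of 10 FOXO list genes that rose and had a window (Bcl2l11, Btg1 and Sesn1) and 4.05% of all genes. Matches of different motifs overlapped in 11 of 32851 windows. The windows of a pseudokinase, a glutathione-degrading enzyme and the asparagine synthetase are shown for the position of the match in capitals, at chr2:152344011-152344310 (minus strand), chr2:119350992-119351291 (plus strand) and chr6:7693160-7693459 (minus strand). The match began 14 bases after the start in Trib3, 193 before it in Chac1 and 23 before it in Asns.
Trib3: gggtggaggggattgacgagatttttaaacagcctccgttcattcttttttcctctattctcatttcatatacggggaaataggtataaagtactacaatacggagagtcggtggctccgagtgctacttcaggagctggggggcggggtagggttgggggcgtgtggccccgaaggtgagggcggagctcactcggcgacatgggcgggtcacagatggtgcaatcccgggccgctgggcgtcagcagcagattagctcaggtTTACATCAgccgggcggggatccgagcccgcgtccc
Chac1: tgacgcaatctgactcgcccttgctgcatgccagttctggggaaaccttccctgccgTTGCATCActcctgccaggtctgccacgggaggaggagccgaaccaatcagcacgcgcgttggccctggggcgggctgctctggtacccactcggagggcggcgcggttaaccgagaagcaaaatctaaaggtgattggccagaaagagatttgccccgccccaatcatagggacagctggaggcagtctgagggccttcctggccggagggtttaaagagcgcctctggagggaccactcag
Asns: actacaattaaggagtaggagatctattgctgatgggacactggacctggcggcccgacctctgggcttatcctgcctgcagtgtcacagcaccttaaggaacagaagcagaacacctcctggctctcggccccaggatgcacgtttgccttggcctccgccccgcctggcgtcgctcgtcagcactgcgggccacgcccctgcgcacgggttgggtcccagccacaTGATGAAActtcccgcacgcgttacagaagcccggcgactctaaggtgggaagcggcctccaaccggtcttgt

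FOXO factors and targets rose in 12 of 20 cases and fell in 2, with a median of 0.55, or 0.30 without background correction, whereas in control cells 4 rose, 8 fell and the median was -0.40. The difference was higher for 11 and lower for 0. Tsc22d3, which encodes the glucocorticoid-induced leucine zipper, went from 9.65 and 9.54 to 11.43 and 11.26, a 3.37-fold rise, against a 1.87-fold fall without the inhibitor, and the log2 difference was 2.66. Pik3ip1, an inhibitor of PI3K, rose 5.40-fold from a level above background on 1 array at 0 h, with a log2 difference of 2.53. Bcl6, a repressor of Th2 and effector programmes, rose at least 3.60-fold from background. Klf6, a Krüppel-like factor, rose 1.60-fold with Akti1/2 and fell in control cells, with a log2 difference of 2.07. The rise of Klf6 did not pass without Akti-treated 0 h replicate 1 (log2 0.52, adjusted p = 0.0936) or 6 h replicate 2 (0.41, adjusted p = 0.0984), nor in a fit of the 4 arrays alone (adjusted p = 0.0807). Tob1, which restrains proliferation, fell 1.72-fold.

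Receptors and surface molecules followed several courses. Cxcr4, the receptor for CXCL12, rose from 7.85 and 7.66 to 10.36 and 11.05, or 7.75-fold, against a 1.35-fold change without the inhibitor and a log2 difference of 2.52. Ccr7, the lymph node homing receptor, rose 2.36-fold from a level above background on 1 of the 2 arrays at 0 h, and its log2 difference was 1.02. Icam1, an adhesion molecule, rose 5.31-fold, with a log2 difference of -1.22 that passed the test. Of 13 homing genes 4 rose and 0 fell, and 1 fell without Akti-treated 0 h replicate 1. Of 21 activation surface molecules 11 rose and 2 fell. The surface list had 52.4% rises and 9.5% falls and the homing list 30.8% rises, against 15.4% rises and 17.9% falls of all genes. Cd69, an early activation marker, rose 9.01-fold, from 7.67 and 7.62 to 10.59 and 11.05, and its log2 difference of 0.71 missed the threshold (adjusted p = 0.0581), though it passed without Akti-treated 6 h replicate 1 (0.94, adjusted p = 0.016), without background correction (0.63, adjusted p = 0.0249) and over the genes above background on all 16 arrays (adjusted p = 0.0378). Cd28 itself rose 2.55-fold with a log2 difference of 1.19, and the inhibitory receptor Ctla4 rose 3.40-fold with a log2 difference of 1.02. Cd82, a tetraspanin, rose 1.94-fold with a log2 difference of -0.57. Cd52 stood at 12.55 and 12.49 at 0 h and at 12.57 and 12.58 at 6 h, a change of 0.05 whose sign turned under another scaling, and the log2 difference of -0.59 did not pass without control 0 h replicate 1 (adjusted p = 0.0568).

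The receptor's own signalling parts went both ways, with 3 rises (5 without Akti-treated 6 h replicate 1) and 6 falls of 24, or 25.0% falls against 17.9% of all genes, and a median of -0.02 that lay between -0.11 and 0.05 with 1 array left out. Rasgrp1, which loads Ras with GTP, rose 3.30-fold. Cd3e, Zap70 and Lck fell 1.82-fold, 1.65-fold and 1.55-fold; they encode a chain of the receptor complex and the kinases that act on it. Sit1, an inhibitory adaptor, fell 2.70-fold, and the fall was -0.94 on the log2 scale without Akti-treated 6 h replicate 2, against -1.43 with all arrays. Of 14 Th2 factors and receptors 6 rose (42.9%, against 15.4% of all genes) and 0 fell (against 17.9%). Without background correction 4 rose. The median was 0.23. With any 1 of the 4 arrays left out, fewer members passed as rises and the median lay between 0.20 and 0.36. Il2ra, the high-affinity chain of the IL-2 receptor, rose 2.46-fold, and the transcription factors Stat3 and Gfi1 rose 2.28-fold and 2.18-fold. The difference of Il2ra, -1.22, did not pass without control 0 h replicate 1 (adjusted p = 0.0639), Akti-treated 0 h replicate 1 (0.0536) or control 6 h replicate 1 (0.0552). Gata3, the Th2 master regulator, stood at 12.22 and 12.21 and then 12.32 and 12.57, and did not pass (adjusted p = 0.17). Jak2, a kinase downstream of cytokine receptors, rose 9.53-fold, from 6.76 and 6.64 to 9.94 and 9.96.

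Sterol and lipid synthesis genes went both ways, with 6 rises (3 without Akti-treated 0 h replicate 1) and 3 falls of 25, or 24.0% rises against 15.4% of all genes, and a median of 0.14, or 0.07 and 0.21 without Akti-treated 6 h replicates 1 and 2. In control cells 17 of them fell and 1 rose, where 15.4% of all genes fell, with a median of -0.86. The difference was higher with Akti1/2 for 16 members and lower for 0. Mvd, a decarboxylase of the mevalonate pathway, went from 9.48 and 9.44 to 10.04 and 10.11 with the inhibitor, a 1.53-fold rise, and fell 4.02-fold without, a log2 difference of 2.62. Acat2, a thiolase at the head of the pathway, had a log2 change of -0.21 (adjusted p = 0.258) with the inhibitor and fell by 1.83 on the same scale without, a log2 difference of 1.63. Sc4mol, a sterol oxidase, rose 1.85-fold with a log2 difference of 2.31, and its arrays at 6 h, 9.001 and 9.91, were far apart. Its rise was 1.34 without Akti-treated 6 h replicate 1, and it did not pass without 6 h replicate 2 (0.43, adjusted p = 0.146), 0 h replicate 1 (0.94, adjusted p = 0.0501) or 0 h replicate 2 (0.84, adjusted p = 0.0762), nor in a fit of the 4 arrays alone (adjusted p = 0.0815). Elovl6, a fatty acid elongase, fell 2.56-fold.

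Most genes of glucose uptake and glycolysis fell. Of 19 glycolysis genes 14 fell (73.7%, against 17.9% of all genes) and 0 rose (against 15.4%). All 19 had a lower mean at 6 h, and the median was -0.59. In control cells 9 fell and 0 rose, with a median of -0.33, and the difference was lower for 3 and higher for 1. Slc2a3, a glucose transporter, went from 11.88 and 11.85 to 10.31 and 10.18, a 3.08-fold fall (log2 -1.62 ± 0.13 SE, adjusted p = 2.24e-06) with a log2 difference of -1.02. Pgam1, a phosphoglycerate mutase, went from 10.23 and 10.36 to 8.93 and 8.94, 2.56-fold lower, with a log2 difference of -1.06. Pdk1, which inhibits pyruvate dehydrogenase, fell 2.92-fold, Pgm2 2.45-fold, the phosphofructokinase Pfkl 2.26-fold and the hexokinase Hk1 1.99-fold. Gapdh, often used as a reference gene, changed by -0.19 and did not pass (adjusted p = 0.185).

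MYC network and MYC-linked metabolic genes had 14 falls (45.2%, against 17.9% of all genes) and 3 rises (9.7%, against 15.4%) among 31. The median was -0.35 against 0.11 in control cells. Without Akti-treated 0 h replicate 2 the falls numbered 9. Myc went from 7.76 and 8.19 to 6.81 and 6.42, 2.58-fold lower (log2 -1.37 ± 0.18 SE, adjusted p = 0.000142), against a log2 change of 0.29 without the inhibitor and a log2 difference of -1.66. The nucleotide synthesis enzymes Gart and Umps fell 1.83-fold each, and Mxd3, a partner of MAX that opposes MYC, fell 2.73-fold, while its relative Mxd4 rose (log2 0.98). Ribosome biogenesis genes rose and fell in equal number, 6 each of 36 (33.3% called, as of all genes), with a median of -0.01 that turned to 0.02 with scaling to the same mean and lay between -0.11 and 0.02 with 1 array left out. They numbered 2, 3 and 2 rises without Akti-treated 6 h replicate 2, 0 h replicate 1 and 0 h replicate 2, and 3 falls without 0 h replicate 1. In control cells 21 of these genes rose and 0 fell. The difference was lower for 18 of them and higher for 0. Pes1, a factor of large subunit assembly, rose 2.24-fold with Akti1/2, and Polr1e, a subunit of RNA polymerase I, fell 1.79-fold.

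Cell cycle genes fell in 15 of 41 cases (36.6%, against 17.9% of all genes) and rose in 1 (Rb1, 2.4%, against 15.4%). Their median was -0.32, or -0.18 without background correction. In control cells 22 fell and 2 rose, where 15.4% of all genes fell and 12.1% rose, with a median of -0.40. The rise of Rb1 did not pass without Akti-treated 6 h replicate 2, 0 h replicate 1 or 0 h replicate 2, and 2 genes rose without 6 h replicate 1. Ccnd3, the cyclin of early G1 in lymphocytes, fell 2.97-fold, Rrm2, a subunit of ribonucleotide reductase, 2.66-fold and Cdkn1a, the inhibitor p21, 3.18-fold. Apoptosis genes were mixed, with 9 rises and 8 falls of 27, and the falls numbered 4, 3 and 4 without Akti-treated 6 h replicate 2, 0 h replicate 1 and 0 h replicate 2. The apoptosis list thus had 33.3% rises and 29.6% falls, against 15.4% and 17.9% of all genes. Bcl2a1d and Fas, which oppose and start cell death, both rose, Fas at least 4.01-fold from background and Bcl2a1d 5.41-fold from a level above background on 1 array at 0 h. The survival gene Bcl2 fell at least 2.88-fold, to background on both arrays at 6 h. In the list of PI3K, Akt and mTOR genes 7 of 30 rose and 3 fell (33.3% called, as of all genes), with 3 rises without Akti-treated 0 h replicate 1 and 1 fall without 0 h replicate 2. Eif4ebp1, the translation inhibitor that mTORC1 switches off, rose 2.43-fold, and Sgk1, a kinase related to Akt, fell 1.68-fold, against a 5.08-fold fall without the inhibitor.

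Interferon-induced genes were divided, with 5 rises (26.3%, against 15.4% of all genes) and 6 falls (31.6%, against 17.9%) of 19. Gbp3, a guanylate-binding protein, was at background at 0 h and rose at least 9.63-fold, and Irf1 rose 2.88-fold, while Ifitm2 and Bst2, which act at membranes against viruses, fell 2.15-fold and 2.03-fold. Ribosomal protein, proteasome and oxidative phosphorylation lists had smaller shares called than all genes. Falls made up 17.9% of the proteasome list and 18.0% of the oxidative phosphorylation list, about the same as the 17.9% of all genes. Rises in these lists, 0.0% and 1.6%, were fewer than the 15.4% of all genes. Of 56 ribosomal protein genes 2 rose (5 without background correction) and 2 fell, or 7.1% called. The falls were those of Rps15a, at least 2.02-fold to background, and of Rps27a, 1.58-fold. The rises of Rpl19 and Rpl22 both failed to pass without Akti-treated 0 h replicate 1 or 0 h replicate 2, and 1 rise was left without 6 h replicate 2. Of 39 proteasome genes 0 rose and 7 fell (11 without Akti-treated 6 h replicate 1), with Psmb8 1.97-fold and Psmd12 1.65-fold lower. Of 61 oxidative phosphorylation genes 1 rose and 11 fell (19.7% called). The rise was that of Cox6a2, which was at background on all 4 arrays, and the rises numbered 2 without Akti-treated 6 h replicate 1 and 0 without 0 h replicate 2. Ndufb7, a subunit of complex I, fell 1.499-fold, and its fall did not pass without Akti-treated 0 h replicate 2 (log2 -0.54, adjusted p = 0.054). The falls of this list numbered 7, 3 and 4 without Akti-treated 6 h replicate 1, 0 h replicate 1 and 0 h replicate 2. Of 41 histone genes 13 rose (31.7%, against 15.4% of all genes, and 8 genes without Akti-treated 6 h replicate 1) and 2 fell (4 without 0 h replicate 1). Hist1h4c rose at least 1.58-fold and Hist2h2be fell 2.64-fold. Replication-dependent histone genes are near-identical within a family, so probes may not tell them apart.

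Outside the lists, the 10 largest falls among genes above background on all 4 arrays included Itpk1, an inositol phosphate kinase (4.40-fold), Dmwd (4.32-fold), Pabpnl1, a poly(A)-binding protein (4.27-fold), LOC100047651 (4.05-fold), Mt3, a metallothionein (3.96-fold), Sdc3, a syndecan (3.95-fold), the tubulin Tubb6 (3.94-fold), Hba-a1 (3.92-fold) and Hey1, a target of Notch (3.43-fold), beside Egr1. Those whose log2 change also differed from that in control cells included Dmwd (-1.23), Tubb6 (-2.001) and Hba-a1 (-1.48). Dmwd went from 8.27 and 8.32 to 6.23 and 6.13, and Tubb6 from 10.53 and 10.24 to 8.19 and 8.62. Of genes above background on both arrays at 0 h and on neither at 6 h, 88 were called, led by Insc (at least 4.97-fold lower), Caln1 (3.15), Bcl2, St3gal5, an enzyme of ganglioside synthesis (2.78), Epb4.1l1 (2.37) and Kremen (2.14). In the opposite direction 111 genes were called. Col4a1, a chain of basement membrane collagen, was at 5.26 and 5.06 at 0 h and at 8.94 and 8.94 at 6 h, an at least 9.77-fold rise, and Casp4, an inflammatory caspase, rose at least 5.06-fold.

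Differences in response were ranked among genes called in both tests and above background on both arrays at 0 or 6 h with Akti1/2. Col4a1 had a log2 difference of 4.16 (adjusted p = 3.635e-08), but it was at background at 0 h in both conditions and at 6 h in control cells, so that the size is not measured. Hbp1, a repressor of cell cycle genes, had the largest positive difference of the genes above background in all 4 groups: it went from 7.78 and 7.98 to 9.54 and 9.57 with the inhibitor, a log2 rise of 1.67, and fell by 1.72 without, a log2 difference of 3.40. Arl11, a small GTPase, rose by 1.499 on the log2 scale with the inhibitor and fell to background without it (at least 1.18-fold), with a log2 difference of 2.68 (adjusted p = 5.28e-05). Among the genes so ranked, the most negative differences after Gadd45g, Il13 and Tnfsf14 were those of Asb2, an adaptor of ubiquitin ligases (a log2 fall of 1.01 against a rise of 1.44, difference -2.45), Tnf and Tnfrsf12a, the receptor of TWEAK (a log2 fall of 1.13 against a rise of 1.03, difference -2.16).

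In control cells 897 genes rose and 1140 fell (27.5% called). Of the 1140 genes that rose with Akti1/2, 361 also rose in control cells, 117 fell and 662 were not called there; the 361 are 31.7% of the rises with the inhibitor and 40.2% of those without. Of the 1322 that fell, 442 also fell in control cells, 62 rose and 818 were not called, so that the shared falls are 33.4% of one list and 38.8% of the other. A gene called in a single condition is not thereby shown to differ. Scaling to the same mean in place of quantile normalization moved the median difference of all genes from -0.01 to 0.12 and gave 1156 higher and 452 lower differences, 71.9% higher against 52.7%. Of 58 differences of named genes recomputed under this scaling, 55 kept their direction and those of Il4, Rel and Tnfaip3 changed sign.

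**Figure D4:**
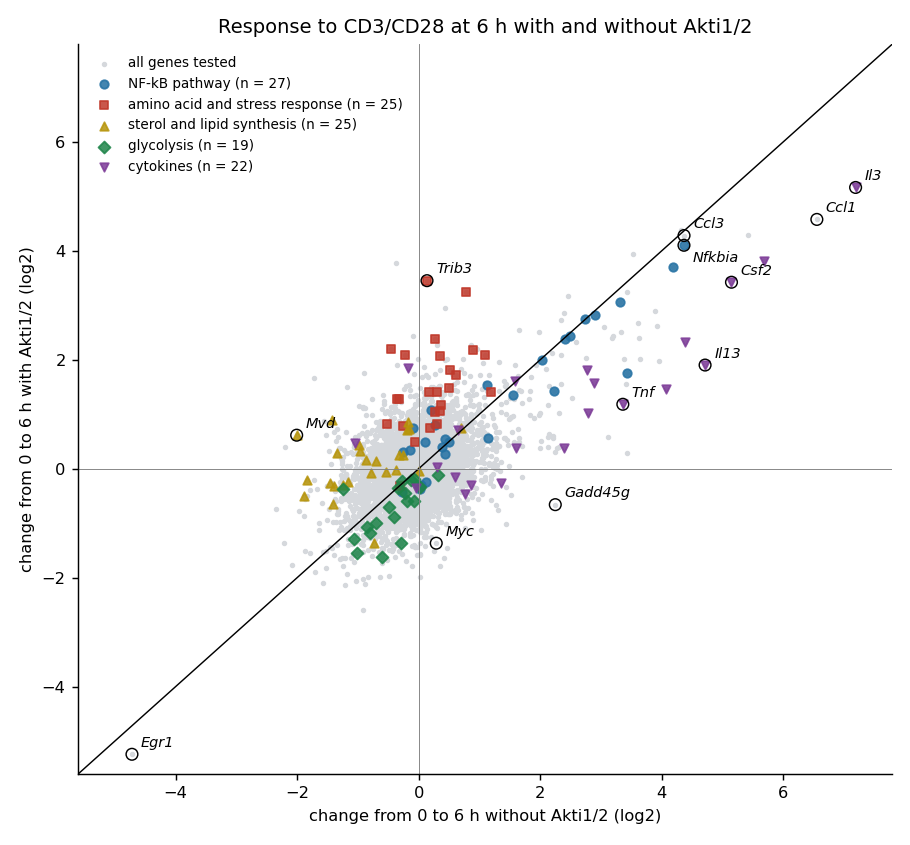
Change from 0 to 6 h with Akti1/2 (vertical, log2) against the change without (horizontal, log2) for the 7395 genes tested (grey), with 5 gene lists in colour and named genes ringed; the line marks equal change. NF-κB genes such as Nfkbia (4.104 against 4.37) lie near the line, cytokines such as Il13 below it, and Trib3 (3.45 against 0.14) and Mvd above it.

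The inhibited cells at 2 and 12 h placed these changes in time. From 2 to 6 h 2230 genes changed (30.2%), of which 1179 rose (15.9%) and 1051 fell (14.2%). With scaling to the same mean 1338 rose and 805 fell. From 6 to 12 h 1313 changed (17.8%), with 659 rises (8.91%) and 654 falls (8.84%). The order of these counts rests on 1 array: without Akti-treated 6 h replicate 1 they were 1166 and 1509, and the second was 713 without 6 h replicate 2 and 597 and 710 without 12 h replicates 1 and 2. Without 2 h replicate 2 the first was 1228. Log2 changes from 0 h at 2, 6 and 12 h share the 0 h arrays and are given side by side. Ccl1 had changed by 4.69 at 2 h, stood at 4.58 at 6 h and at 3.90 at 12 h. Il3 went on rising, with 2.83, 5.17 and 6.67. It was at background on both 0 h arrays, so that the sizes of these 3 changes are not measured. Il5 was lower at 2 h (-1.06), higher at 6 h (2.32) and at 1.13 at 12 h, and both steps passed the test (adjusted p = 1.73e-05 and 0.00788). Areg lost its rise after 6 h (1.65, 1.57 and -0.13). Trib3 climbed through 2.87 and 3.45 to 4.25, and Pik3ip1 through 1.30 and 2.43 to 3.26. For Ccl1, Il3, Areg, Trib3 and Pik3ip1 the step from 6 to 12 h passed the test. Nfkbia stood at 3.60, 4.104 and 3.90, and its step from 6 to 12 h did not pass (adjusted p = 0.434).

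Several falls in glucose metabolism were smaller or gone at 12 h. Slc2a3 stood at -1.58 at 2 h, -1.62 at 6 h and 0.02 at 12 h, and the step from 6 to 12 h passed the test (adjusted p = 9.43e-06). Pfkl went from -0.59 and -1.18 to 0.54, Pgm2 from -0.42 and -1.29 to 0.24, and Pgam1 from -0.28 and -1.36 to -0.62. The median of the glycolysis list was -0.42, -0.59 and -0.18. Myc was lowest at 2 h (-1.71) and at -1.37 and -1.23 afterwards, and neither later step passed. The stress response list had medians of 0.96, 1.41 and 1.82, the FOXO targets 0.56, 0.55 and 0.73, and the cell cycle list -0.15, -0.32 and -0.63.

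**Figure D5:**
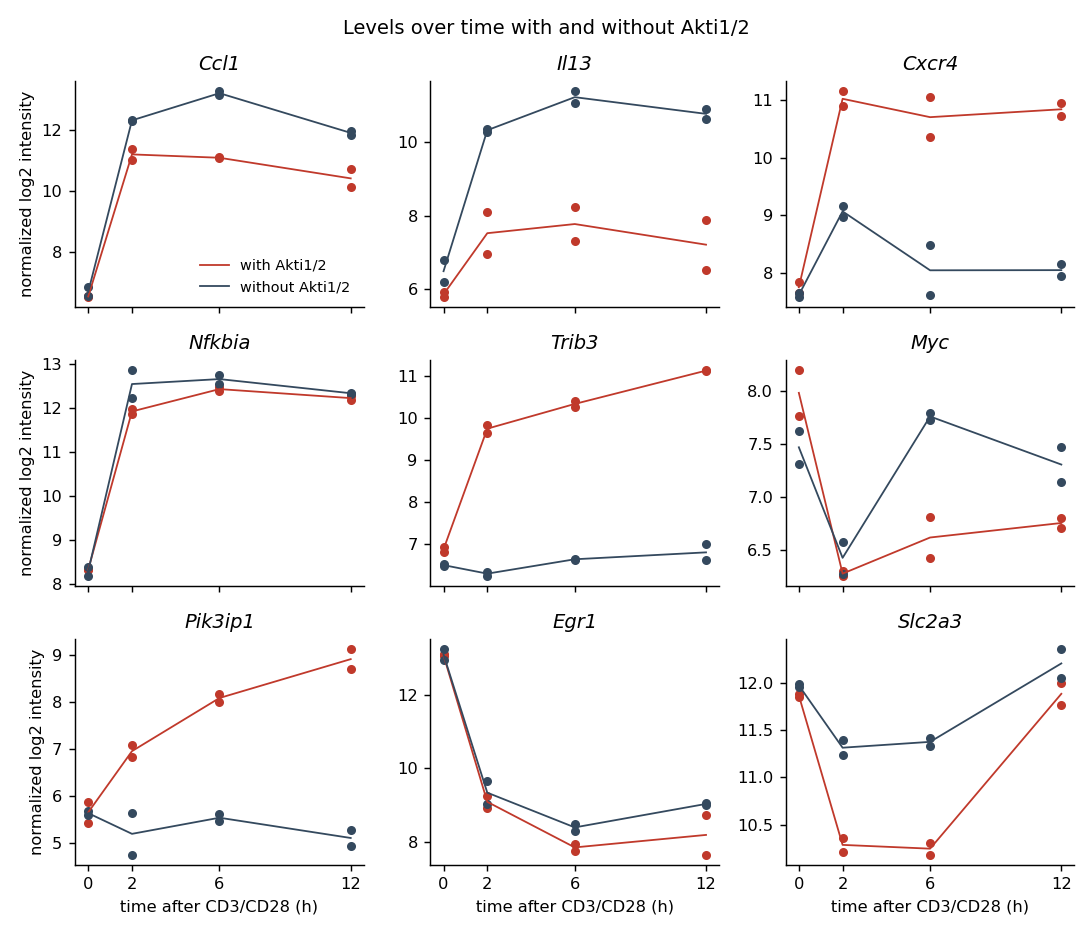
Normalized log2 intensity of 9 genes at 0, 2, 6 and 12 h with Akti1/2 (red) and without (dark blue); points are arrays and lines join the group means. The curves of Nfkbia lie close together, those of Trib3 and Pik3ip1 part from 2 h on, and Slc2a3 with Akti1/2 is back near its 0 h level at 12 h.

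The J5 score, which the study's methods used, sets the linear difference between group means against the average size of such differences over all genes. The study chose a threshold for each time point and names 20 for its 2 h lists and none for 6 h. Beyond a threshold of 20, the score called 121 of 18138 genes (0.667%), 60 higher and 61 lower at 6 h, and limma called 86 of them. The J5 calls were bright genes: the median percentile of mean intensity was 99.0, against 82.3 for the limma calls.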

How the data were processed

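The deposited tables hold the intensity of each gene and its detection p-value on Illumina MouseRef-8 arrays, exported by the authors from the scanner software, with 1 value a gene and no normalization; a second table of control probes repeated the first for 15 arrays. The deposited detection p-values compare each gene with the negative controls, and a gene entered the tests if its p was under 0.01 on 2 or more of the 16 arrays. Groups came from the labels, with 2 arrays each on 2 chips of 8. Intensities were processed with neqc, which corrects the background by normexp from the 798 negative controls, adds an offset of 16, equalizes the quantiles and takes log2 (limma version 3.58.1, R version 4.3.3). All 16 arrays in 8 groups were fitted with lmFit and eBayes (8 residual and 4.26 prior degrees of freedom), and p-values were Benjamini-Hochberg adjusted over all 7395 genes. The difference in response is the change from 0 to 6 h with Akti1/2 minus that without. J5 was computed on intensities scaled to the same 95th percentile. By replicate number, deviations of the Akti-treated 0 and 6 h arrays had a correlation of -0.101. Over all 28 pairs of groups it lay between -0.296 and 0.264. At 0 and 6 h, replicate 1 of each group was on the same chip and replicate 2 on the other. In data simulated for the 6 h against 0 h comparison (8782 genes), 14, 45, 50 and 50 of 50 planted changes were recovered at log2 changes of 0.5, 1, 2 and 3, with 14 calls not planted. Changes were planted only in genes with a mean level over 8 on the Akti-treated 0 h arrays. Noise was drawn independently for each gene and array. The recovery therefore does not cover dimmer genes, or a deviation that many genes of an array share.

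Members and gene lists were chosen with earlier results of these data known. Named genes were the 10 largest rises and falls among genes above background on all 4 arrays, the 6 largest bounds in each direction among genes at background in a single group, the 6 largest differences in each direction among genes called in both tests and above background on both arrays of an Akti-treated group, up to 4 called members of each list or members that stand for its role, and genes the study text names. Promoters came from RefSeq tables matched by gene ID, then symbol. The alternatives were another background correction, scaling, filter, fit, block and threshold, and leaving out each array. Some genes are not reported here.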

Additional observations from a re-analysis of the deposited data

Results flagged for a closer look

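The change from 0 to 6 h differed with and without Akti1/2 for 1445 genes in limma's test of the difference itself (adjusted p under 0.05). Of the 142 named genes, 58 had their difference recomputed under the alternatives, and 48 of these 58 passed. Only these 48 are listed below, and other named genes also had a difference that passed. Values are differences in log2 change, with Akti1/2 minus without. With 2 arrays a group, single arrays far from the others could not be tested.

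Among stress response genes the difference was 3.32 for Trib3, 2.66 for Gpt2, 2.47 for Slc1a4, 2.11 for Ddit3, 1.72 for Cebpb, 1.54 for Atf3, 1.29 for Herpud1, 1.23 for Asns and 1.11 for Chac1. It was 2.66 for Tsc22d3, 2.53 for Pik3ip1, 2.07 for Klf6, 1.02 for Ctla4 and 1.02 for Ccr7 among FOXO targets, and 2.62 for Mvd, 2.31 for Sc4mol and 1.63 for Acat2 among sterol genes. The remaining higher responses among the 48 were those of Col4a1 (4.16), Hbp1 (3.40), Arl11 (2.68), Cxcr4 (2.52), Il16 (2.03) and Cd28 (1.19).

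The difference was lower for 15 of 22 cytokines and higher for 2, and lower for 4 of 8 chemokines and higher for 0. These counts include Lta, Il24 and Xcl1, which were at background on all 4 arrays with Akti1/2. Among them it was -2.81 for Il13, -2.62 for Tnfsf14, -2.18 for Tnf, -2.06 for Il5, -2.03 for Il3, -1.98 for Ccl1, -1.87 for Il10, -1.72 for Csf2, -1.32 for Areg, -0.998 for Ccl4 and -0.95 for Ltb. Regulators and transcription factors with a lower response among the 48 were Gadd45g (-2.91), Asb2 (-2.45), Ier3 (-1.87), Bcl3 (-1.68), Myc (-1.66) and Gadd45b (-1.14). Surface molecules were Tnfrsf12a (-2.16), Il2ra (-1.22), Cd52 (-0.59) and Cd82 (-0.57), and the glucose genes were Pgam1 (-1.06) and Slc2a3 (-1.02). Tubb6 (-2.001) and Hba-a1 (-1.48) complete the 48. Arl11, Atf3, Bcl3, Col4a1, Gadd45b, Il3, Pik3ip1 and Slc1a4 were at background on both arrays of at least 1 of the 4 groups, where their level is not measured.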

How the results depend on the processing

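With 2 arrays a group, the number of calls depends on the spread shared by all 16 arrays. Fitting only the groups compared left 1479 calls for the response at 6 h, 607 for 6 against 2 h, 335 for 12 against 6 h and 2 for the level at 0 h. A limma test against a fold change of 1.5 left 336 calls for the response, and 29 of the 142 named responses lost their call. Leaving out 1 array gave 1649 (without Akti-treated 0 h replicate 2) to 2315 calls for the response, 916 (without control 0 h replicate 1) to 1447 for the difference, and 3 to 4 at 0 h. For 6 against 2 h the range was 1166 to 2420, with 1166 without Akti-treated 6 h replicate 1 and 1228 without 2 h replicate 2. For 12 against 6 h it was 597 to 1509, with 597 and 710 without 12 h replicates 1 and 2 and 713 without 6 h replicate 2. Quantile normalization without background correction gave 7 calls at 0 h. J5 gave 113 to 141 calls with 1 array left out, 28 over genes above background alone, 348 at a threshold of 10 and 67 at 30.

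With the replicate number as a block in the fit of all arrays, 2439 genes were called for the response and 1428 for the difference. A replicate block in a fit of the 4 arrays alone, chosen after seeing the data, called 1019. Exchanging the numbers at 6 h in the fit of all arrays, also chosen afterwards, called 2402. The labels give the numbers no pairing. The call of no named gene changed under the block in all arrays, and in the 4 arrays alone 7 responses no longer passed, those of Gadd45g, Klf6, Lck, Mvd, Ndufb7, Rps27a and Sc4mol (limma adjusted p = 0.0529 to 0.0847).

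Of 142 named responses, only that of Cd52 reversed, to -0.034 with scaling to the same mean. No reversed difference passed the test. Il4 came to -0.008 with that scaling, -0.058 without Akti-treated 0 h replicate 2 and -0.060 without control 6 h replicate 2, and Cxcl2 to -0.084 and -0.014 without control 6 h replicate 1 and Akti-treated 6 h replicate 2. With 1 array left out, the highest or lowest values on the other side of 0 were 0.143 for Il4, 0.245 for Cxcl2, -0.360 for Rel, -0.328 for Tnfaip3 and 0.091 for Relb. Rel came to 0.028 without background correction, 0.103 with mean scaling, and 0.092, 0.188, 0.024 and 0.306 without control 0 h replicate 2, Akti-treated 0 h replicate 1, control 6 h replicate 1 and Akti-treated 6 h replicate 1. Tnfaip3 came to 0.311 and 0.060 under the same normalizations, and to 0.239, 0.092, 0.006 and 0.234 without control 0 h replicate 1, Akti-treated 0 h replicate 1, control 6 h replicate 1 and Akti-treated 6 h replicate 1. Relb came to -0.049, -0.016, -0.070 and -0.012 without control 0 h replicate 1, Akti-treated 0 h replicate 1, control 6 h replicate 2 and Akti-treated 6 h replicate 2. Where no value is given for it, the cause was not tested.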
